A study of Mus musculus with 13 samples.

Results

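Whole implantation sites of mouse embryos carried by mouse recipients were compared between day 9 and day 7 of pregnancy. An implantation site is the swelling of the uterine wall that holds an embryo together with the maternal tissue around it, so each sample held embryo, trophoblast, decidua, glands, immune cells and muscle wall. The arrays were chosen by sample title and by no measured value: 2 arrays of day 9 and 2 arrays of day 7, which are 4 of the 13 arrays of the series. All 45037 probe sets of the array other than the 64 AFFX control probe sets were considered. In both groups, mouse embryos flushed on day 4 of pregnancy were transferred to female ICR mice, an outbred strain, on day 3 of pseudopregnancy, and the labels name no allele, transgene or drug. Embryo transfer itself was shared by both groups, so no site of a natural pregnancy was measured. The remaining 9 arrays held sites of Wistar rat embryos in ICR mouse recipients of the same kind on day 9 and day 7, transferred alone (rat sites) or together with mouse embryos (rat sites after co-transfer). In that study the mouse sites were the controls for the rat embryos, and here they are described in their own right. The labels give neither the age of the recipients nor the number of animals or sites behind an array. The p-values therefore rest on how far all 13 arrays spread within their groups, and that spread may be technical alone.

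The mouse uterus answers an implanting embryo by decidualisation, in which stromal cells stop dividing, enlarge, become polyploid and secrete hormones of the prolactin family. In the days after implantation the embryo passes gastrulation, the yolk sac makes the first red cells with embryonic globins, and trophoblast giant cells and the ectoplacental cone begin to release their own prolactin-family hormones. Over the same days natural killer cells of the uterus multiply and fill with granzymes, and maternal vessels are rebuilt towards the future placenta.

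About 100 mg of tissue per sample was extracted, and about 8 µg of total RNA was labelled and hybridised to Affymetrix Mouse430_2 arrays. Each array carries 45101 signals that had been scaled to a trimmed mean of 500, and the number of arrays limits the precision. The median signal was 179.6 and 203.3 on the day 9 arrays, against 141.2 and 151.2 on the day 7 arrays. The ratio of the 3′ to the 5′ probe set of Gapdh, a sign of RNA integrity and labelling, was 2.92 and 2.90 on day 9, against 1.54 and 1.44 on day 7. The same ratio for Actb was 2.42 and 2.99 on day 9, against 3.47 and 3.71 on day 7, so the control genes moved in opposite directions. The day 9 and day 7 arrays lay in different wash runs, as inferred from the recorded hybridisation times, so wash run and day cannot be told apart, and the part of RNA quality in the results was not tested. Log2 signals of all probe sets correlated with r = 0.965 between the day 9 arrays and 0.974 between the day 7 arrays, against 0.908 to 0.929 between the days. In tissue of this kind, fewer cells of a type and less RNA per cell cannot be told apart.

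Between day 7 and day 9 the mouse sites changed broadly. Signals were compared as log2(signal + 57.1) with limma, and a feature was called at a Benjamini-Hochberg adjusted p under 0.05. Of 22155 tested probe sets 9789 were called (44.2%), with 4861 higher (21.9%) and 4928 lower (22.2%) on day 9. Rises and falls of at least 2-fold made up 7.55% and 5.02% of probe sets, and the arrays of the days did not overlap for 73%. With each gene read from its brightest tested probe set (by mean log2 signal over the 13 arrays), 5335 of 12010 genes were called (44.4%). On day 9, 2461 genes were higher (20.5%) and 2874 lower (23.9%), and these shares are the background for each group of genes below. At least 2-fold changes were called for 790 genes that rose (6.58%) and 609 that fell (5.07%), and the 2 arrays of one day lay entirely above or below those of the other for 73.8% of genes. Log2 changes below are day 9 minus day 7 with the standard error (SE) of the fit, from 2 arrays a day. They understate the change of dim genes because of the added constant.

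The balance between rises and falls depended on how the arrays were scaled. The deposited scaling gave 49.7% of calls as rises. Setting every array to the same median instead gave 2275 rises and 9091 falls (20.0% of calls as rises), because it moved the median log2 change of all tested genes to -0.38, against -0.02 with the deposited scaling. Values below keep the deposited scaling, and a change between about -0.4 and 0.4 should be read against that shift. Counts of a list under median scaling should be read against these 2275 rises and 9091 falls among the 22155 tested probe sets. That comparison is rough, because a list counts genes. Under median scaling the median log2 change was -0.33 over probe sets and -0.38 over genes. List medians that turn under median scaling are named where they occur. Of the called genes named below, 12 did not pass the test under median scaling: Adgre1, Adm, Bmp4, Cdkn1c, Cyp11a1, Dnmt3b, Lamc1, Lifr, Prl6a1, Rrm2, Stc2 and Wars. Of the uncalled ones, 8 with small positive values turned negative: C1ra, Ctsb, Hand2, Kdr, Lif, Myl4, Odc1 and Pecam1. Other uncalled ones passed the test as falls under median scaling, among them Acta2, Col1a2, Col3a1, H2-K1, Hk1, Lama1, Lamb1 and Tdo2.

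**Figure D1:**
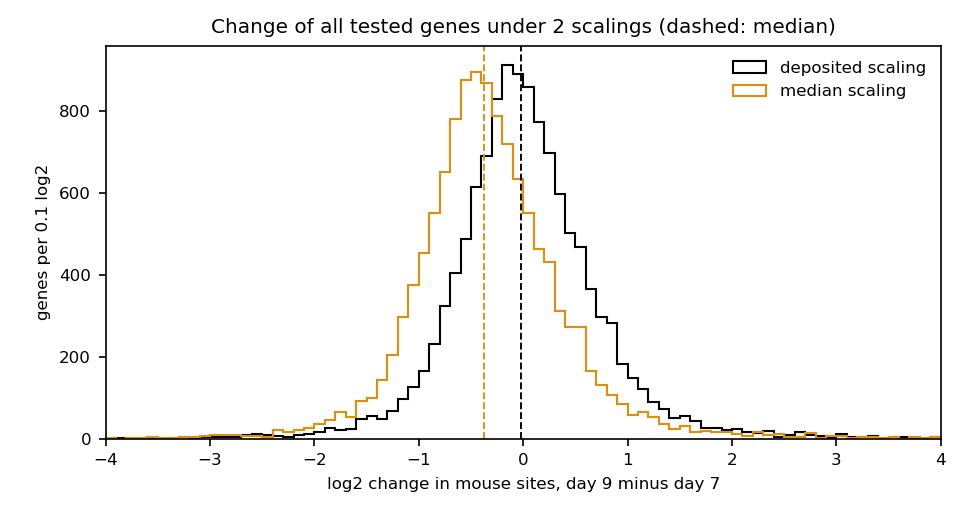
Number of tested genes (vertical axis, per 0.1 log2) by log2 change between day 9 and day 7 in mouse sites (horizontal axis), with the deposited scaling in black and with median scaling in orange. Dashed lines mark the medians of -0.02 and -0.38: the distribution moves as a whole to the left. The axis ends at -4 and 4.

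The 15 largest rises ranged from a log2 change of 4.89 for Psca to 8.51 for Hbb-y, and the 15 largest falls from -2.95 for Mmp10 to -4.94 for Gdpd3. The rises included embryonic globins, Afp and trophoblast hormones, and the falls included the gland proteases Prss28 and Prss29 and the matrix genes Tnc and Thbs1. Non-overlap of the days was a condition for these 30 genes and held for 73.8% of all genes.

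**Figure D2:**
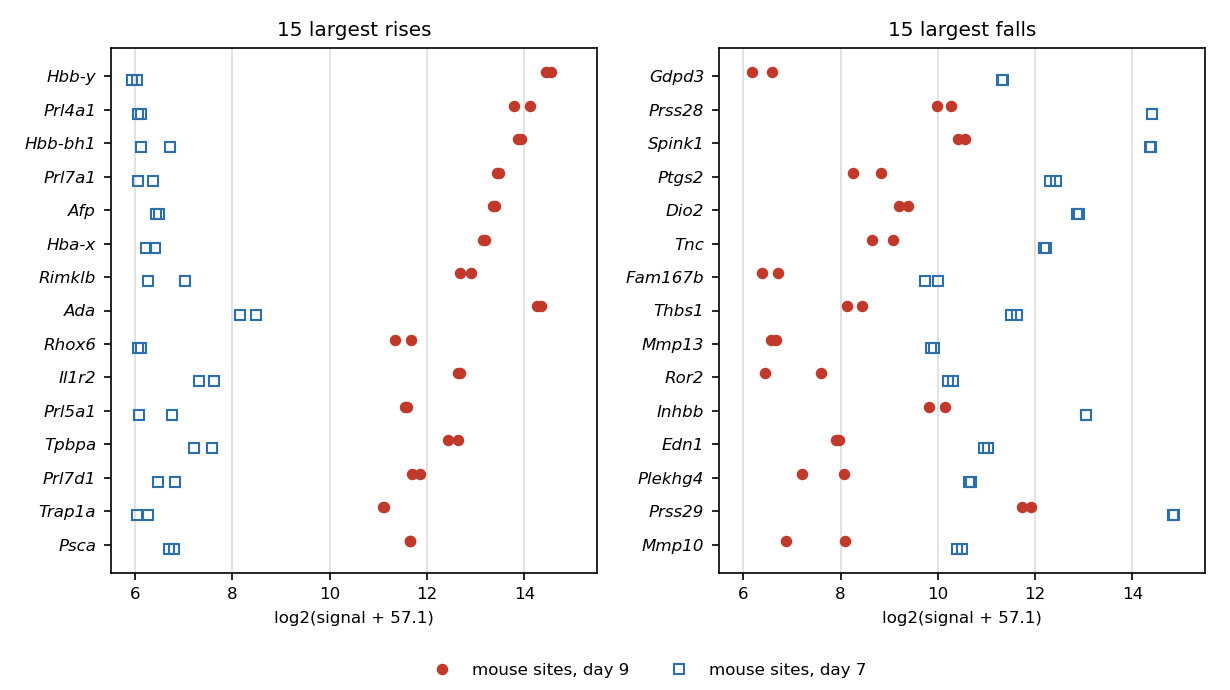
Log2(signal + 57.1) on each array (horizontal axis) for the 15 genes with the largest rise and the 15 with the largest fall (rows), with day 9 arrays as filled red circles and day 7 arrays as open blue squares. The day 7 arrays lie near the floor for Hbb-y, Prl4a1, Hba-x and Rhox6, whereas Ada and Il1r2 start above it, and Prss28, Spink1 and Prss29 keep a clear signal on day 9.

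Globins of primitive red cells were among the largest rises, with signals on day 7 below the constant added before the logarithm. Hbb-y, the embryonic beta-type globin, had signals of 22417.2 and 23942.6 on day 9, against 3.9 and 9.1 on day 7 (log2 change 8.51 ± 0.15, adjusted p = 5.61e-10). Hbb-bh1, a second embryonic beta-type globin, had 15573.4 and 14955.6 on day 9, against 13 and 48.8 on day 7 (7.47 ± 0.28, adjusted p = 8.7e-08). Hba-x, the embryonic zeta globin, had 9311.1 and 8995.5 on day 9, against 28.5 and 18.1 on day 7 (6.84 ± 0.26, adjusted p = 9.94e-08). For these 3 genes the size of the fold rests on the added constant, and the days lay far apart. Of 25 primitive erythroid genes listed, 20 had a probe set and 13 were tested. Of the 13, 10 rose and 0 fell, with a median log2 change of 1.44 against -0.02 over all genes, but 7 of the 13 passed the filter on low signals only through the day 9 arrays, which builds a difference in. Of the other 6, 4 rose. The promoters of Hbb-y and Hba-x are shown because these genes had the first and sixth largest rises, with the letters GATAA (the core that GATA factors read), CACCC (read by Klf1-type factors) and CCAAT in capitals on either strand. The sequences here and below are from RefSeq (GRCm38.p6), 5′ to 3′ on the strand of the gene, 250 bases before and 50 bases after the start.
Hbb-y, chr7:103853158-103853457, minus strand: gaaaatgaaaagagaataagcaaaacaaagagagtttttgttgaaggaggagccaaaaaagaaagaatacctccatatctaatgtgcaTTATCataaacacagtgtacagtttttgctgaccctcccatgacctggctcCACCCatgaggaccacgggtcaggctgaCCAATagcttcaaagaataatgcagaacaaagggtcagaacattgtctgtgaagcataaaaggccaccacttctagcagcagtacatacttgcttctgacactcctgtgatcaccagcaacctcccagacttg
Hba-x, chr11:32276350-32276649, plus strand: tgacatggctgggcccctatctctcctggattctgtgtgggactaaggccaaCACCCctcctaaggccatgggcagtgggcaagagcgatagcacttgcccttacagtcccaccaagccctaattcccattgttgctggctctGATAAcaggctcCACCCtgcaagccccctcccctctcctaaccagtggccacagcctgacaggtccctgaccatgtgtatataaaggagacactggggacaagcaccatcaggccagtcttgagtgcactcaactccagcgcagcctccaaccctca
In Hbb-y these letters lay 162 (GATAA, on the opposite strand), 111 (CACCC) and 83 (CCAAT) bases before the start. Hba-x held CACCC 198 and 95 bases and GATAA 107 bases before the start, and no CCAAT in this window. Among all 32851 RefSeq promoters 25.4% held GATAA, 57.5% CACCC and 37.4% CCAAT, so each is common by itself.

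Yolk sac endoderm made up the next group. Visceral endoderm covers the early embryo and becomes the absorbing and secreting layer of the yolk sac. Afp, the fetal serum protein alpha-fetoprotein, had signals of 10508.9 and 10776.5 on day 9, against 29.8 and 33.3 on day 7 (6.92 ± 0.18, adjusted p = 8.19e-09), and all 4 of its tested probe sets rose. Apoa1, the main apolipoprotein of high-density lipoprotein, had 1744.9 and 1589.8 on day 9, against 11.1 and 21.8 on day 7 (4.55 ± 0.11). Ttr, the carrier of thyroid hormone and of the retinol-binding protein, had 6178.9 and 6104.1 on day 9, against 257.4 and 234.2 on day 7 (4.36 ± 0.13). The days did not overlap for any of the 3. Of 37 visceral endoderm and yolk sac genes 23 were tested, and 18 rose while 1 fell (Sox17, an endoderm and endothelial transcription factor, at -0.45 ± 0.10). The median was 1.80. Here 11 of the 23 passed only through the day 9 arrays, and of the other 12, 7 rose. Rbp4, the plasma carrier of retinol, belongs to the retinoid list and had 3190.9 and 3150.6 on day 9, against 635.4 and 646.4 on day 7 (2.21 ± 0.16).

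Genes of parietal endoderm and basement membrane, which line the trophoblast, moved both ways and close to the background. Of 15 tested members 3 rose and 5 fell, with a median of -0.18. Thbd, the receptor thrombomodulin that keeps blood from clotting at the trophoblast surface, had 2790.7 and 2761.7 on day 9, against 1491.1 and 1447.6 on day 7 (0.89 ± 0.08, adjusted p = 2.03e-05). Lamc1, a laminin chain, rose by 0.62 ± 0.12, while Lama1 (-0.29 ± 0.15) and Lamb1 (-0.18 ± 0.17), the partner chains of laminin-111, did not pass the test. The falls were led by Stra6, a retinol importer (-1.85 ± 0.15), and Plat, tissue plasminogen activator (-1.55 ± 0.15).

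The mouse carries a large cluster of prolactin-related genes, most of which are expressed by trophoblast and a few by decidua. Prl4a1 had signals of 14099.0 and 17725.1 on day 9, against 12.4 and 9.9 on day 7 (7.86 ± 0.32, adjusted p = 1.41e-07). Prl7a1 had 11350.9 and 11075.3 on day 9, against 25.1 and 10.1 on day 7 (7.24 ± 0.16, adjusted p = 2.49e-09). Prl5a1 had 3045.6 and 2929.7 on day 9, against 51.5 and 10.5 on day 7 (5.15 ± 0.29), and Prl7d1, the proliferin-related protein, had 3636.0 and 3245.1, against 32.0 and 55.8 (5.12 ± 0.24). Prl2a1 (3.97 ± 0.38) and Prl2b1 (3.46 ± 0.10) also rose. All 11 tested members of the list of 21 rose, by 0.87 to 7.86, and 10 of the 11 passed the filter only through the day 9 arrays. Their number is therefore no support for a common rise, and the values by array carry the description. Prl3a1, Prl7a2 and Prl8a6 were not tested, with signals of at most 132.9 on any mouse array.

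Other trophoblast and placenta genes rose less evenly. Tpbpa, the marker of ectoplacental cone and spongiotrophoblast, had signals of 6354.1 and 5482.3 on day 9, against 90.9 and 135.7 on day 7 (5.14 ± 0.24, adjusted p = 3.03e-07). Rhox6, an X-linked homeobox gene of placenta and germ line, had 3194.5 and 2538.2 on day 9, against 12.1 and 9.4 on day 7 (5.42 ± 0.27), and Cts7, a placental cathepsin, had 2469.2 and 2337.3, against 60.3 and 8.8 (4.81 ± 0.25). Of 28 tested members 18 rose and 4 fell, with a median of 1.11. Of the 20 that did not depend on the day 9 arrays to pass the filter, 11 rose. Hand1, a transcription factor needed for giant cells, had 260.6 and 372.6 on day 9, against 174.4 and 221.4 on day 7, and did not pass the test on its named probe set (0.54 ± 0.31, adjusted p = 0.18), although 1 of its 2 probe sets did. Tpbpb, a paralog of Tpbpa, had 299.0 and 309.4 on day 9, against 141.2 and 252.2 on day 7 (0.54 ± 0.27, adjusted p = 0.129). The falls were the keratins Krt18 (-0.88 ± 0.08) and Krt7 (-0.36 ± 0.11), which uterine epithelium also expresses, their relative Krt19 (-0.30 ± 0.10), and the cell adhesion gene Pcdh12 (-0.63 ± 0.22). Outside this list, the largest rises included Rimklb (6.15 ± 0.37), Ada (5.98 ± 0.16), Trap1a (4.96 ± 0.29) and Psca (4.89 ± 0.14). Ada, adenosine deaminase, which decidua and trophoblast express at high levels in the mouse, had 19599.4 and 20783.2 on day 9, against 229.1 and 301.9 on day 7 (adjusted p = 8.38e-09).

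Genes of the embryo proper were mostly dim. Of 24 epiblast and primitive streak genes 6 were tested and 4 rose. Of these, Eomes also belongs to the lists of trophoblast and of natural killer cell genes. Eomes, a transcription factor of streak and trophoblast, had signals of 560.2 and 478.0 on day 9, against 233.2 and 184.9 on day 7 (1.12 ± 0.21, adjusted p = 0.00243), and Utf1, a pluripotency factor, had 263.5 and 528.4, against 59.2 and 105 (1.66 ± 0.40). Dnmt3b, a de novo DNA methyltransferase, rose by 0.62 ± 0.16, and Nodal had 313.0 and 338.1, against 168.0 and 286.3 (adjusted p = 0.121). Of 9 tested neural ectoderm genes 4 rose and 1 fell, with a median of 0.38. Here 2 of the 9 passed the filter only through the day 9 arrays, and of the other 7, 2 rose. Zic1, a transcription factor of the neural plate, had 312.6 and 388.0 on day 9, against 3.8 and 39.4 on day 7 (2.40 ± 0.32, adjusted p = 0.000313), and Irx3 had 762.5 and 733.3, against 228.9 and 186.8 (1.61 ± 0.13). Among 16 tested genes of embryonic mesoderm, heart and somites 4 rose and 2 fell, with a median of 0.29 that became -0.04 under median scaling. Actc1, cardiac actin, rose by 0.90 ± 0.15, whereas Tnnt2, cardiac troponin T, fell by 1.01 on the log2 scale (SE 0.27), and Myl4, the atrial myosin light chain, had 282.8 and 364.1, against 294.5 and 344.1 (adjusted p = 0.975).

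Imprinted genes, which are expressed from 1 parental copy and act in placental growth, moved in both directions. Of 15 tested 8 rose and 4 fell. Phlda2, a brake on placental growth, had signals of 2083.9 and 1591.8 on day 9, against 120.3 and 234.0 on day 7 (3.05 ± 0.30, adjusted p = 5.13e-05). Igf2, the main growth factor of fetus and placenta, had 2989.6 and 2595.5 on day 9, against 560.5 and 318.3 on day 7 (2.56 ± 0.43, adjusted p = 0.00122), and Peg3 had 2524.8 and 2152.2, against 639.1 and 675.9 (1.74 ± 0.13). The falls included Nnat (-1.18 ± 0.24), Plagl1 (-0.70 ± 0.10) and Igf2r (-0.65 ± 0.15), the receptor that removes Igf2. In the list of insulin-like growth factor genes 5 of 13 rose and 5 fell, with a median of 0.10 that became -0.28 under median scaling. Of the 12 that did not depend on the day 9 arrays to pass the filter, 4 rose. Igf1 had 6050.4 and 5532.5 on day 9, against 2079.8 and 1942.9 on day 7 (1.5 ± 0.09, adjusted p = 1.24e-06), and the mRNA-binding proteins Igf2bp3 (1.66 ± 0.22) and Igf2bp1 (1.5 ± 0.22) rose. The binding proteins Igfbp2 (-1.33 ± 0.10), Igfbp4 (-0.86 ± 0.10) and Igfbp7 (-0.71 ± 0.08) fell.

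Among the decidual hormones 2 of 3 rose, and genes secreted by the stroma moved both ways. Prl8a2, decidual prolactin-related protein, had signals of 23554.2 and 30689.2 on day 9, against 15284.3 and 15945.6 on day 7 (0.78 ± 0.14, adjusted p = 0.00173). Prl6a1 had 5138.8 and 4937.2 on day 9, against 3820.7 and 3812.3 on day 7 (0.40 ± 0.08, and 0.01 under median scaling), and Prl3c1 had 1822.7 and 1446.1, against 1677.9 and 1921.1, with overlapping days (-0.14 ± 0.29, adjusted p = 0.714). Of 24 tested stromal decidual genes 6 rose, all at least 2-fold, and 9 fell, 4 of them at least 2-fold, with a median of -0.20. Htra1, a secreted serine protease of decidua, had 21369.7 and 24637.4 on day 9, against 2212.4 and 2288.1 on day 7 (3.32 ± 0.11, adjusted p = 3.08e-08). Its relative Htra3 had 11780.2 and 13279.3 on day 9, against 1706.0 and 1688.7 on day 7 (2.84 ± 0.10). Angpt2, which loosens vessel walls, had 7260.2 and 6049.4 on day 9, against 1047.9 and 1430.0 on day 7 (2.38 ± 0.14). Genes known for the onset of decidualisation were among the falls. The whole list of 24 had 9 falls under the deposited scaling and 14 under median scaling, where 9091 of all 22155 probe sets fell. Ptgs2, the inducible prostaglandin synthase, had 395.6 and 247.3 on day 9, against 5031.1 and 5473.3 on day 7 (-3.84 ± 0.22, adjusted p = 1.18e-06). Il11, a cytokine required for decidualisation, had 61.0 and 93.1 on day 9, against 478.9 and 530.3 on day 7 (-2.07 ± 0.22). Wnt4 had 982.2 and 930.7 on day 9, against 3838.4 and 3542.3 on day 7 (-1.89 ± 0.09), and Bmp2 had 3132.6 and 2415.3, against 4851.0 and 4838.4 (-0.80 ± 0.12). Hand2, the stromal transcription factor downstream of progesterone, had 13596.6 and 13534.9, against 11643.3 and 12296.8 (0.18 ± 0.09, adjusted p = 0.122).

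Steroid enzymes rose in the mouse sites. Of 12 tested genes of steroid synthesis and breakdown 10 rose, 8 of them at least 2-fold, and 2 fell, with a median of 1.09. Of the 10 that did not depend on the day 9 arrays to pass the filter, 8 rose. Cyp17a1, which makes androgens from progestins, had signals of 1902.4 and 2070.5 on day 9, against 19.6 and 23.7 on day 7 (4.70 ± 0.13, adjusted p = 1.22e-08). Akr1c18, which inactivates progesterone, had 4361.4 and 3967.6 on day 9, against 126.4 and 76.2 on day 7 (4.75 ± 0.29, adjusted p = 2.04e-06). Star, which brings cholesterol into mitochondria, had 1788.0 and 1851.9, against 466.5 and 348.2 (2.03 ± 0.13), and Hsd17b2, which oxidises oestradiol, had 661.4 and 828.5, against 147.8 and 96.5 (2.17 ± 0.27). Cyp11a1, the enzyme that starts steroid synthesis, rose by 0.26 ± 0.09, which became -0.12 under median scaling. Hsd11b2, which inactivates glucocorticoids, fell by 1.20 on the log2 scale (SE 0.09), with 2089.8 and 1882.1 on day 9, against 4649.9 and 4596.2 on day 7. Among 20 tested receptors and targets of steroids 5 rose and 7 fell. The receptors Pgr (-0.74 ± 0.10), Esr1 (-0.48 ± 0.09) and Nr3c1 (-0.77 ± 0.20) fell, and so did the oestrogen target Greb1 (-1.52 ± 0.09), for which 1 of 3 probe sets rose. The rises were led by Tsc22d3 (2.21 ± 0.10), Zbtb16 (2.09 ± 0.09) and Fkbp5 (1.65 ± 0.11), all known targets of the glucocorticoid receptor. Zbtb16 and Fkbp5 also belong to the list of stromal decidual genes, and the part of any steroid receptor in these rises was not tested. Fkbp5 had 2240.9 and 2353.6 on day 9, against 667.7 and 718.9 on day 7.

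Genes of uterine natural killer cells mostly rose. Of 19 tested members 16 rose (84.2%, against 20.5% of all genes) and 0 fell, with 13 rising at least 2-fold and a median of 1.20. The 3 that did not pass the test included killer cell lectin-like receptor genes. Only 1 of the 19 had passed the filter through the day 9 arrays alone. Gzmg had signals of 16826.8 and 16482.3 on day 9, against 4245.7 and 4115.5 on day 7 (1.98 ± 0.09, adjusted p = 3.03e-07). Gzma had 13556.3 and 12439.7 on day 9, against 4546.0 and 4412.1 on day 7 (1.52 ± 0.09), and Gzmc had 7514.2 and 7800.7, against 2474.3 and 2576.0 (1.58 ± 0.09). Granzymes are serine proteases stored in the granules of these cells, and in each of the 3 genes the days were far apart and the arrays of a day close. Gzmb, the granzyme shared with T cells, rose by 1.20 ± 0.14. Il2rb, the receptor chain for interleukin 15, had 1019.2 and 915.2 on day 9, against 259.8 and 187.2 on day 7 (1.88 ± 0.16, adjusted p = 2.06e-05), and the integrin Itga2 had 282.5 and 424.6, against 148.3 and 28.9 (1.61 ± 0.38). The summed signal of the 19 genes was 98382 and 96776 on day 9, against 38416 and 38105 on day 7. Ifng and Tbx21, the cytokine and master regulator of type 1 immunity, were not tested, with signals between 3.1 and 107.7 on the mouse arrays. The receptor genes Ncr1, Klra7, Klra8 and Klre1 of this list were not tested either. T and B cell markers were dim throughout: 3 of 17 were tested and 0 passed, Cd8a having 259.9 and 581.0 on day 9, against 199.0 and 101.4 on day 7 (adjusted p = 0.0909). Gzmc and Gzmg, both in the granzyme cluster on chromosome 14, are shown with TGACGTCA, the palindrome that CREB-type factors read, in capitals.
Gzmc, chr14:56234608-56234907, minus strand: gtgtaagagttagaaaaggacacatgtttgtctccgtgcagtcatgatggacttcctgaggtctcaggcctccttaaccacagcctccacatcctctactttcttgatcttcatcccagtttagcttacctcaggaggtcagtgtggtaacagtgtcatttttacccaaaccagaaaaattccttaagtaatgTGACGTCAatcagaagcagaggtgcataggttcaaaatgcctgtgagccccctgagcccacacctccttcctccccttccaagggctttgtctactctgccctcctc
Gzmg, chr14:56159530-56159829, minus strand: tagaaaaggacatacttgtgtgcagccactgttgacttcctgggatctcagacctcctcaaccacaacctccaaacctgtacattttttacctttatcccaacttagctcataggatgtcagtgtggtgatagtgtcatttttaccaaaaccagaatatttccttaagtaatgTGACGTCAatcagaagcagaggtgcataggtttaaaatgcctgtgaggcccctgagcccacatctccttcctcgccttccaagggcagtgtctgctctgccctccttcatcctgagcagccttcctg
The motif lay 57 bases before the start of Gzmc and 77 bases before that of Gzmg, and these promoters aligned with 75.9% identical positions. Of the 9 granzyme and perforin promoters looked up, 3 held it (Gzmc, Gzmf and Gzmg), against 1.79% of all promoters. Promoters as alike as those of Gzmc and Gzmg do not count as independent, and enrichment was not tested.

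Macrophage genes moved in part. Of 25 tested 10 rose and 2 fell, and the median of 0.26 became -0.10 under median scaling, where 4 rose and 4 fell. Csf1r, the receptor for the macrophage growth factor, had signals of 10220.7 and 9516.7 on day 9, against 3701.6 and 3605.4 on day 7 (1.42 ± 0.09, adjusted p = 3.51e-06). In the mouse, trophoblast also expresses it. Cd68, a lysosomal protein of macrophages, had 1112.8 and 1059.2, against 334.7 and 363.4 (1.49 ± 0.11), and Adgre1, the F4/80 antigen, had 1060.3 and 1663.7, against 816.5 and 831.9 (0.65 ± 0.19). Cd14 (-0.97 ± 0.14) and C1qb (-0.51 ± 0.17) fell. Genes of antigen presentation were called no more often than all genes: 1 of 13 class I genes rose and 2 fell, and 1 of 7 class II genes rose and 1 fell. H2-K1 had 8088.7 and 8382.0 on day 9, against 9258.1 and 9523.1 on day 7 (adjusted p = 0.0843). Their medians of 0.13 (class I) and 0.21 (class II) became -0.22 and -0.17 under median scaling.

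Interferon response genes moved both ways. Of 37 tested 12 rose (32.4%, against 20.5% of all genes), 8 fell (21.6%, against 23.9%) and 17 did not pass the test. Falls were therefore no more frequent than among all genes. The median of 0.03 became -0.28 under median scaling. Ifit1 had signals of 684.5 and 782.6 on day 9, against 210.2 and 164.4 on day 7 (1.70 ± 0.15, adjusted p = 2.41e-05), Usp18 had 1117.0 and 1143.7, against 296.2 and 353.7 (1.64 ± 0.11), and Rsad2 rose by 1.10 ± 0.14. These genes are classic targets of type I interferon, but targets of the different interferons were not tested as separate groups. The largest falls were GTPases that answer interferon gamma: Iigp1 had 1149.3 and 829.4 on day 9, against 4005.5 and 3705.4 on day 7 (-1.92 ± 0.15, adjusted p = 1.18e-05), followed by Igtp (-1.31 ± 0.16) and Gbp6 (-1.14 ± 0.42, adjusted p = 0.0491). Ifit2 had 681.6 and 613.2, against 692.4 and 606.7 (adjusted p = 0.99).

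Of 21 tested genes of neutrophils and acute inflammation 5 rose (23.8%) and 7 fell (33.3%), near the shares of all genes. S100a8, a calcium-binding protein that mouse decidua and ectoplacental cone also express, had signals of 20263.2 and 20834.0 on day 9, against 2985.5 and 3085.4 on day 7 (2.74 ± 0.10, adjusted p = 8.01e-08). Its partner S100a9 had 824.5 and 712.6 on day 9, against 1915.8 and 1715.3 on day 7 (-1.18 ± 0.21, adjusted p = 0.00146), so the partners moved in opposite directions. Il1r2, the decoy receptor that binds interleukin 1, had 6357.5 and 6506.5 on day 9, against 140.4 and 102.5 on day 7 (5.19 ± 0.31, adjusted p = 1.7e-06), while its ligand Il1b had 363.3 and 231.5, against 1420.7 and 1227.7 (-1.98 ± 0.28). Cxcl5, a neutrophil attractant, had 335.2 and 322.6, against 2038.2 and 2173.6 (-2.49 ± 0.20), and Lcn2, lipocalin 2, fell by 1.58 on the log2 scale (SE 0.23).

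Of 22 tested complement and coagulation genes 12 rose and 6 fell, against 7 and 7 under median scaling. Procr, the receptor for protein C, had signals of 17715.2 and 21571.3 on day 9, against 856.0 and 1198.8 on day 7 (4.19 ± 0.17, adjusted p = 1.17e-07). Tfpi2, an inhibitor of clotting factors and plasmin, had 2580.6 and 2942.5, against 368.1 and 377.0 (2.71 ± 0.11), and F13a1, the subunit of the clot-stabilising factor XIII, rose by 1.56 ± 0.14. Tissue factor, F3, fell by 0.83 on the log2 scale (SE 0.24), and Cd55, which restrains complement, fell by 0.98 (SE 0.10). C1ra had 1090.7 and 1162.6, against 1069.5 and 1067.4 (adjusted p = 0.553), and C1s1 fell by 0.51 (SE 0.15).

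**Figure D3:**
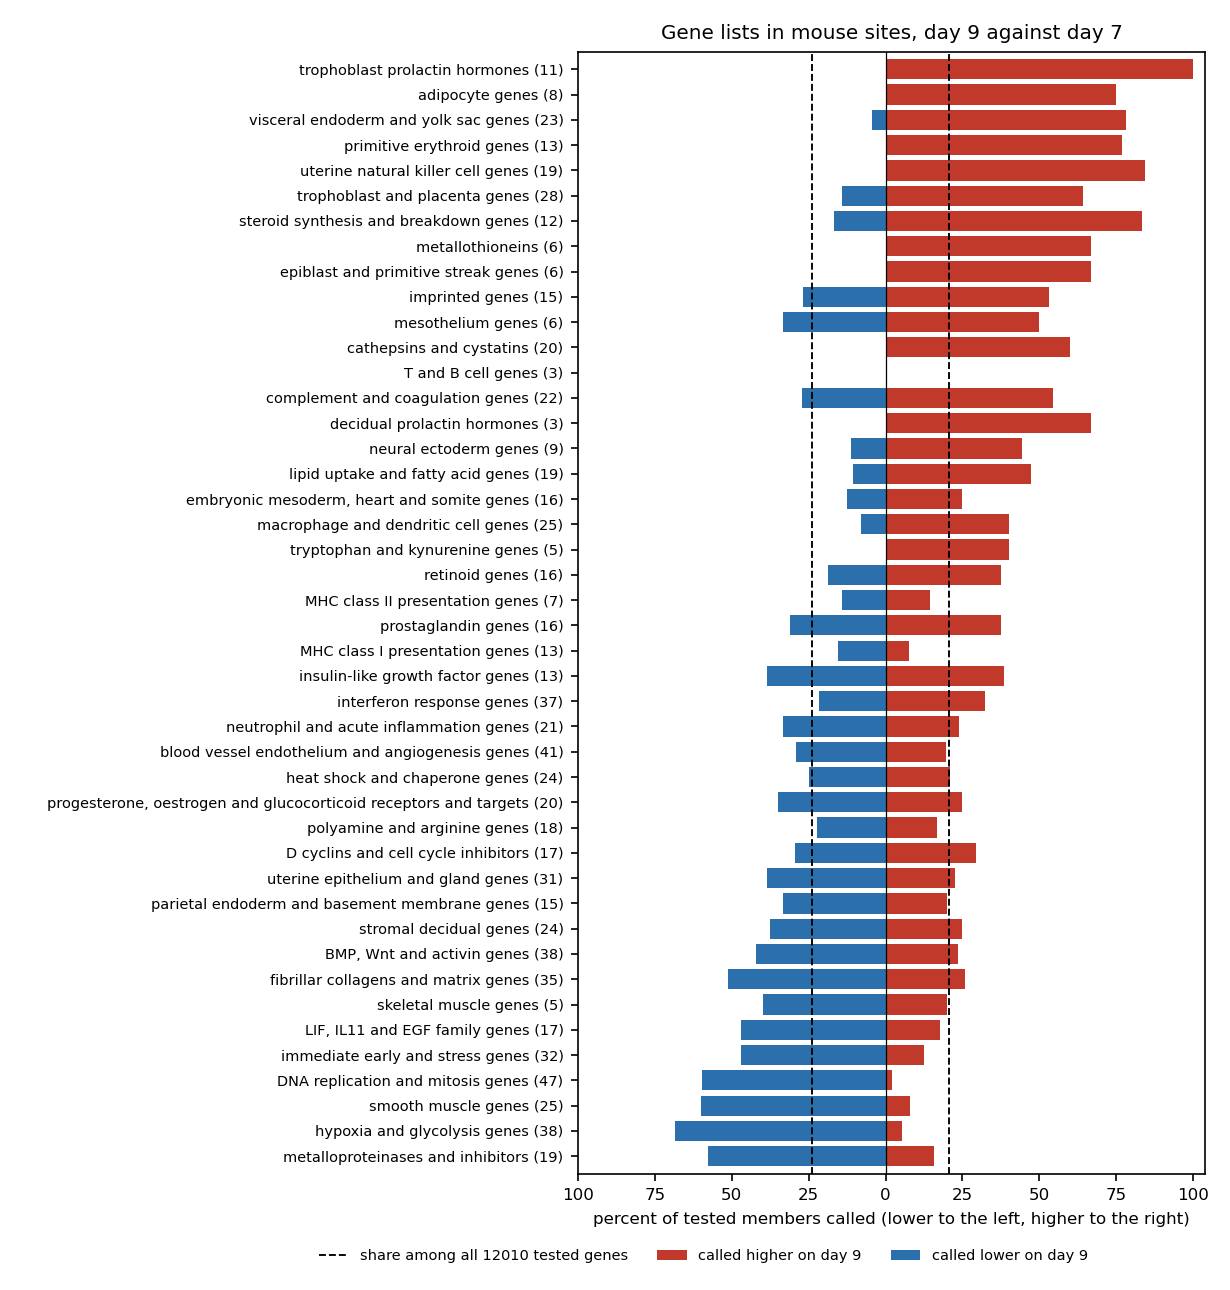
Share of tested members called higher (red, right) and lower (blue, left) on day 9 than on day 7 in each of the 44 gene lists, ordered by median change, with the number of tested members in brackets. Dashed lines mark the shares among all 12010 genes (20.5% higher and 23.9% lower). The uppermost lists of embryo, trophoblast and adipocyte genes hold members that passed the filter only through day 9, and natural killer genes reach 84.2%.

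Secretory genes of the uterine glands held some of the largest falls. Prss28 and Prss29, the implantation serine proteinases of the glands, are neighbours on chromosome 17. Prss28 had signals of 1173.9 and 953.9 on day 9, against 21446.2 and 21451.7 on day 7 (-4.27 ± 0.12, adjusted p = 1.03e-08). Prss29 had 3784.8 and 3326.4 on day 9, against 29502.3 and 29107.7 on day 7 (-3.03 ± 0.09, adjusted p = 2.39e-08). Spink1, a trypsin inhibitor, had 1458.9 and 1316.7 on day 9, against 21173.0 and 21037.5 on day 7 (-3.87 ± 0.09, adjusted p = 2.61e-09). Sprr2f, an oestrogen-regulated cornified envelope gene of the luminal epithelium, had 1692.0 and 1744.3, against 11980.6 and 12448.6 (-2.79 ± 0.15). Of 31 tested epithelium and gland genes 12 fell, 7 of them at least 2-fold, and 7 rose, with a median of -0.17. The summed signal of the list was 69867 and 68685 on day 9, against 130516 and 129856 on day 7. Most of that difference lay in 2 genes: without Prss28 and Prss29, left out after their values were seen, the sums were 64908 and 64404 on day 9, against 79567 and 79297 on day 7. The rises were led by Ttr, which is also a yolk sac gene, Aqp8 (2.12 ± 0.31) and Sult1d1 (1.65 ± 0.13). Among the keratins of this epithelium Krt8 rose by 0.79 ± 0.08, while Krt18 (-0.88 ± 0.08) and Krt19 (-0.30 ± 0.10) fell, so the keratins moved both ways. The promoters of Prss28 and Prss29 are shown with TATAAA and TGACGT, the shorter CREB-type site, in capitals.
Prss28, chr17:25308396-25308695, plus strand: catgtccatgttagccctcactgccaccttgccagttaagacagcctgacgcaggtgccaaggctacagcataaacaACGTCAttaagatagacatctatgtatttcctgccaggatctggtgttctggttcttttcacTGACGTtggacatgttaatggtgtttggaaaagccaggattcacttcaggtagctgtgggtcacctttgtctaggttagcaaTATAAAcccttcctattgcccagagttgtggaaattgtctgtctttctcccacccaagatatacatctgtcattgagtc
Prss29, chr17:25318404-25318703, plus strand: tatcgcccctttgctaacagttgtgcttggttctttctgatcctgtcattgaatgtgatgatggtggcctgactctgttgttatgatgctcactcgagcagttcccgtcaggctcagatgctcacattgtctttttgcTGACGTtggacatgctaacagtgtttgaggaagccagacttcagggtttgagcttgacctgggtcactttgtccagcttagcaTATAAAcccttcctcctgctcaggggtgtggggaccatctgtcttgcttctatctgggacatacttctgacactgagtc
TATAAA lay 29 bases before the start of both genes, and TGACGT 111 bases before that of Prss28 and 112 bases before that of Prss29. Prss28 held TGACGT once more on the opposite strand, 173 bases before the start. The 2 promoters aligned with 63.4% identical positions, and 13.6% of all promoters held TATAAA and 7.51% TGACGT.

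Smooth muscle genes, which mark the uterine wall, mostly fell. Of 25 tested genes 15 fell and 2 rose, with a median of -0.58. Oxtr, the oxytocin receptor, had signals of 280.9 and 316.7 on day 9, against 2202.0 and 2267.1 on day 7 (-2.69 ± 0.22, adjusted p = 1.33e-05). Cnn1, calponin, had 1861.6 and 1636.9, against 4342.6 and 5168.7 (-1.41 ± 0.11), and Myh11, smooth muscle myosin, had 3189.4 and 2235.3, against 3855.3 and 3823.9 (-0.51 ± 0.15). Acta2, smooth muscle actin, had 17858.6 and 18225.8, against 21131.7 and 21333.7 (-0.23 ± 0.09, adjusted p = 0.0555). The rises were Hspb7 (1.80 ± 0.17) and the creatine kinase Ckm (1.22 ± 0.26), which skeletal and heart muscle express.

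Matrix genes and their proteases fell more often than they rose. Of 35 tested collagens and matrix genes 18 fell and 9 rose, with a median of -0.28, but the fibrillar chains Col1a2 (0.00 ± 0.10) and Col3a1 (0.00 ± 0.10) did not pass the test, and Col1a1 fell by 0.66 on the log2 scale (SE 0.11). Tnc, tenascin C, had signals of 341.4 and 482.4 on day 9, against 4731.6 and 4575.8 on day 7 (-3.34 ± 0.16, adjusted p = 4.15e-07). Thbs1, thrombospondin 1, had 225.7 and 288.4, against 2837.5 and 3092.3 (-3.27 ± 0.13), and Col14a1 had 1800.6 and 2086.7, against 9628.5 and 9185.4 (-2.25 ± 0.10). Spon1 (1.67 ± 0.10) and Fbln2 (1.61 ± 0.10) rose. Of 19 tested metalloproteinases and inhibitors 11 fell and 3 rose, with a median of -0.72. Mmp13, a collagenase, had 44.8 and 38.3 on day 9, against 871.2 and 910.5 on day 7 (-3.26 ± 0.18, adjusted p = 1.09e-06). Mmp10, stromelysin 2, had 61.2 and 217.6, against 1292.0 and 1390.3 (-2.95 ± 0.47, adjusted p = 0.000862). Adamts4 had 419.0 and 424.5, against 3622.2 and 3603.4 (-2.94 ± 0.21), whereas its relative Adamts5 had 10430.7 and 12159.8, against 800.0 and 866.4 (3.67 ± 0.10, adjusted p = 1.15e-08). Both cleave proteoglycans, and they moved in opposite directions. Mmp2 (-0.88 ± 0.15) and Mmp7 (-1.51 ± 0.16) fell, and Mmp9, the gelatinase of giant cells, had 1780.3 and 1504.1 on day 9, against 679.9 and 667.8 on day 7 (1.21 ± 0.28). The promoters of Mmp13 and Mmp10, both on chromosome 9, are shown with TGANTCA, the letters that AP-1 (Fos and Jun) reads, in capitals.
Mmp13, chr9:7272264-7272563, plus strand: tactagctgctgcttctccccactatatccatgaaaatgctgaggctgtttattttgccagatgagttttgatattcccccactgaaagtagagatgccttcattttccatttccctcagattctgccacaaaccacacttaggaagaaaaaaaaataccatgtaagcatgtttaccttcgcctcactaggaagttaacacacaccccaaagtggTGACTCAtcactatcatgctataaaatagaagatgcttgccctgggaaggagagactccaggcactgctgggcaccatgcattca
Mmp10, chr9:7502092-7502391, plus strand: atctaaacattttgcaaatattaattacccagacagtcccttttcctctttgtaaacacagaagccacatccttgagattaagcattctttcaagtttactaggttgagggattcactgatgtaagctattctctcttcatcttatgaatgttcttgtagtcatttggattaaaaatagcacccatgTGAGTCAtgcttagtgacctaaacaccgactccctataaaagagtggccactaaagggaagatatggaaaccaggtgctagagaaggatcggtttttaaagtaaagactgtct
The motif lay 35 bases before the start of Mmp13 and 63 bases before that of Mmp10, against 7.81% of all promoters that held it anywhere in the window.

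Immediate early genes, which encode AP-1 and other factors switched on rapidly by a stimulus, fell more often than they rose. Of 32 tested 15 fell, 9 of them at least 2-fold, and 4 rose, with a median of -0.39. Fos had signals of 2883.2 and 2218.1 on day 9, against 7375.5 and 8046.8 on day 7 (-1.59 ± 0.13, adjusted p = 1.39e-05). Ier3 had 1778.6 and 1597.6, against 11113.0 and 10809.3 (-2.66 ± 0.11, adjusted p = 1.18e-07), Nr4a1 had 732.1 and 559.6, against 2727.6 and 2577.9 (-1.96 ± 0.18), and Fosl1 fell by 0.72 on the log2 scale (SE 0.12). Fosb had 201.6 and 234.9, against 196.0 and 244.6 (adjusted p = 0.973). The rises were led by Rgs2 (1.18 ± 0.08) and Sgk1 (0.96 ± 0.11), a kinase induced by glucocorticoids. Heat shock genes as a list lay near the background, with 5 of 24 rising and 6 falling, yet the inducible Hspa1a had 537.1 and 471.5 on day 9, against 3252.9 and 3721.9 on day 7 (-2.66 ± 0.13), and Hspa1b fell by 1.67 (SE 0.10). Under median scaling 15 of the 24 heat shock genes fell, beside 9091 of all 22155 tested probe sets.

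Hypoxia and glycolysis genes had the highest share of falls among the 44 lists under the deposited scaling. Under median scaling 78.9% of them fell, against 80.0% of smooth muscle genes. That scaling also gave falls for 9091 of all 22155 tested probe sets. Of 38 tested 26 fell (68.4%, against 23.9% of all genes) and 2 rose, with a median of -0.65. Slc2a1, the glucose transporter GLUT1, had signals of 6255.5 and 5513.5 on day 9, against 12322.8 and 12253.5 on day 7 (-1.06 ± 0.10, adjusted p = 2.91e-05), and Slc2a3 fell by 0.66 on the log2 scale (SE 0.09). Vegfa, the vessel growth factor, had 1870.9 and 1739.3, against 5498.0 and 5652.7 (-1.60 ± 0.09, adjusted p = 1.37e-06). Car12, a carbonic anhydrase, had 421.7 and 506.9, against 3053.8 and 2852.3 (-2.53 ± 0.13), and Ddit4, an inhibitor of mTOR signalling, had 1229.8 and 1111.5, against 4617.7 and 4777.2 (-1.95 ± 0.16). The rises were Stc2 (0.61 ± 0.16) and Adm, the vasodilator adrenomedullin (0.47 ± 0.16), and neither passed the test under median scaling (0.27 and 0.09). Hk1 had 1854.1 and 2217.5, against 2160.2 and 2149.4 (adjusted p = 0.506).

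Genes of blood vessels were near the background, with 8 of 41 rising and 12 falling. Edn1, the vasoconstrictor endothelin 1, had signals of 184.3 and 193.3 on day 9, against 2033.0 and 1933.8 on day 7 (-3.05 ± 0.17, adjusted p = 1.07e-06), and Aplnr, the apelin receptor, fell by 1.15 on the log2 scale (SE 0.09). Cdh5, the adhesion protein of endothelial junctions, had 4553.7 and 3858.6, against 1998.4 and 1909.9 (1.08 ± 0.14), and Flt4, the receptor for Vegfc, rose by 1.20 ± 0.11. The endothelial markers Pecam1 (0.02 ± 0.13, adjusted p = 0.929) and Kdr (0.21 ± 0.17, adjusted p = 0.337) did not pass the test.

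Genes of DNA replication and mitosis fell for the most part. Of 47 tested 28 fell (59.6%), 5 of them at least 2-fold, and 1 rose, with a median of -0.46. Fitted on the 4 mouse arrays alone, 18 fell. Cdk1, the kinase that starts mitosis, had signals of 1774.8 and 1584.2 on day 9, against 4301.8 and 4144.6 on day 7 (-1.30 ± 0.09, adjusted p = 3.24e-06). Mki67 had 1563.9 and 1477.6, against 2652.3 and 2239.7 (-0.66 ± 0.10), Top2a had 2260.0 and 1751.7, against 3813.1 and 3669.6 (-0.89 ± 0.12), and Ube2c, an enzyme of mitotic exit, fell by 1.42 on the log2 scale (SE 0.11). The exception was Rrm2, a subunit of ribonucleotide reductase and a decidual gene in the mouse, which had 23578.6 and 26658.7, against 16080.9 and 16136.6 (0.64 ± 0.10, adjusted p = 0.000628). Under median scaling Rrm2 did not pass the test (0.25, adjusted p = 0.0858). Among D cyclins and inhibitors of the cycle, 5 of 17 rose and 5 fell. Ccnd2 had 1084.2 and 1002.5, against 347.5 and 307.2 (1.52 ± 0.23), the inhibitor Cdkn1c rose by 0.66 ± 0.18, Cdk4 fell by 0.72 on the log2 scale (SE 0.11), and Ccnd3, the D cyclin of decidua, had 1628.4 and 1854.7, against 1960.3 and 2042.9 (adjusted p = 0.363).

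**Figure D4:**
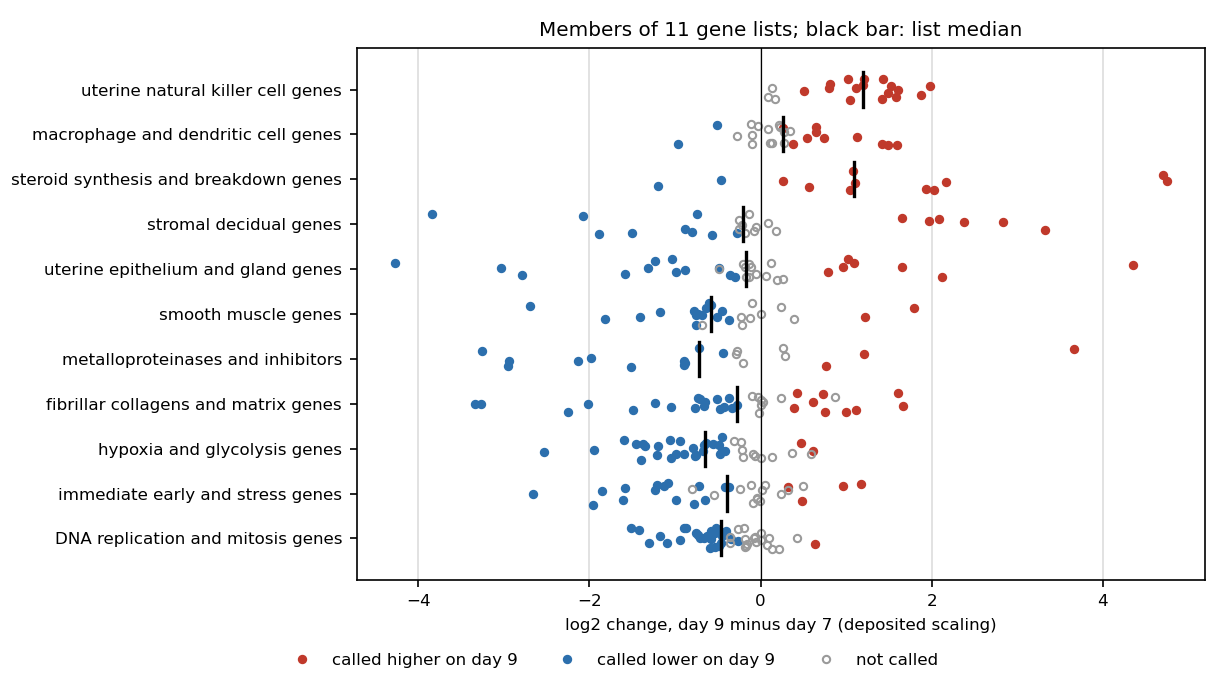
Log2 change between day 9 and day 7 (horizontal axis) of every tested member (points) of 11 gene lists (rows), filled red where called higher, filled blue where called lower and open grey where not called. Vertical position within a row is random, and black bars mark list medians, 1.20 for natural killer genes and -0.65 for hypoxia and glycolysis genes. The median of 0.26 for macrophage genes becomes -0.10 under median scaling.

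Local signals between epithelium, stroma and trophoblast fell more often than they rose. In the list of LIF, IL11 and EGF family genes 8 of 17 fell and 3 rose. Nrg1 had signals of 30.1 and 54.2 on day 9, against 438.0 and 517.8 on day 7 (-2.44 ± 0.30), and Hbegf, the EGF-like growth factor of implantation, had 418.6 and 336.8, against 1263.8 and 1252.6 (-1.60 ± 0.19, adjusted p = 0.000125). Lif had 247.5 and 273.6, against 197.2 and 276.0 (adjusted p = 0.67), and its receptor Lifr rose by 0.75 ± 0.15. Among 38 BMP, Wnt and activin genes 16 fell and 9 rose. Inhbb, the activin B subunit, had 850.2 and 1082.5 on day 9, against 8417.1 and 8432.4 on day 7 (-3.06 ± 0.12, adjusted p = 9.94e-08), and Wnt5a had 845.4 and 1058.1, against 3472.9 and 3761.6 (-1.87 ± 0.14). Ror2, a receptor for Wnt5a, had 136.7 and 29.8, against 1217.3 and 1130.5 (-3.24 ± 0.33, adjusted p = 6.01e-05), so ligand and receptor fell together. Bmp8a (1.97 ± 0.14), Tgfb2 (2.05 ± 0.14) and the Wnt antagonist Sfrp4 (1.59 ± 0.10) rose, and Bmp4 had 428.9 and 498.5, against 209.8 and 224.8 (0.92 ± 0.22). Dio2, which activates thyroid hormone, was among the largest falls, with 617.1 and 534.6, against 7562.6 and 7358.6 (-3.57 ± 0.09), although 1 of its 3 probe sets rose.

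Prostaglandin genes moved both ways. The median of 0.19 became -0.13 under median scaling, and 6 of 16 rose while 5 fell. Here 3 of the 16 passed the filter only through the day 9 arrays, and of the other 13, 4 rose. Beside Ptgs2, the phospholipase Pla2g4a, which frees arachidonic acid, had signals of 912.0 and 1029.4 on day 9, against 3937.8 and 3744.6 on day 7 (-1.93 ± 0.11, adjusted p = 1.51e-06), and the degrading enzyme Hpgd fell by 1.38 on the log2 scale (SE 0.09). Slco2a1, the prostaglandin transporter, had 4208.5 and 3768.1, against 674.1 and 634.8 (2.51 ± 0.10, adjusted p = 1.41e-07), and Ptgds, which makes prostaglandin D2, had 665.5 and 765.7, against 97.2 and 93.8 (2.34 ± 0.29). Among 16 retinoid genes 6 rose and 3 fell, and the median of 0.21 became -0.15 under median scaling. Crabp2, which hands retinoic acid to its receptor, had 1804.0 and 1627.3, against 143.9 and 158.0 (3.09 ± 0.22), Cyp26b1, which degrades retinoic acid, rose by 1.81 ± 0.13, and Aldh1a2, which makes it, had 4899.5 and 5184.4, against 11282.6 and 11466.2 (-1.17 ± 0.13). Among 5 tested genes of tryptophan breakdown Ido1 (1.15 ± 0.23) and Wars (0.51 ± 0.15) rose, and the decidual enzyme Tdo2 had 10027.8 and 10081.0, against 10788.8 and 11188.2 (adjusted p = 0.343). Their median of 0.23 became -0.09 under median scaling.

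Several lysosomal proteases and metallothioneins rose. Of 20 tested cathepsins and cystatins 12 rose and 0 fell, against 6 that rose and 4 that fell under median scaling. Of the 17 that did not depend on the day 9 arrays to pass the filter, 9 rose. Besides the placental Cts7 and Ctsj (3.03 ± 0.18), Ctsk had signals of 4420.5 and 4583.8 on day 9, against 728.0 and 643.9 on day 7 (2.62 ± 0.10, adjusted p = 8.7e-08). Ctsb, a general lysosomal protease, had 11648.7 and 11350.2, against 11562.3 and 10617.4 (adjusted p = 0.635). Of 6 metallothioneins, small proteins that bind zinc and copper, 4 rose. Mt4 had 9041.9 and 9165.3, against 859.2 and 1093.9 (3.16 ± 0.12, adjusted p = 8.7e-08), Mt1 had 18141.4 and 21011.8, against 4679.4 and 4027.1 (2.15 ± 0.11), and Mt2 had 15817.0 and 14028.7, against 6839.9 and 6213.9 (1.19 ± 0.11). In the list of polyamine and arginine genes, near the background with 3 of 18 rising and 4 falling, Arg2 had 351.2 and 312.3, against 1529.0 and 1444.4 (-1.99 ± 0.10), and Odc1, the enzyme that starts polyamine synthesis, had 7254.2 and 5268.5, against 5768.8 and 5767.6 (adjusted p = 0.654).

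Lipid genes rose in part, and markers of fat cells rose with them. Of 19 tested lipid uptake and fatty acid genes 9 rose and 2 fell, and the median of 0.29 became -0.09 under median scaling. Of the 18 that did not depend on the day 9 arrays to pass the filter, 8 rose. Lipg, endothelial lipase, had signals of 19004.9 and 21255.8 on day 9, against 958.9 and 933.3 on day 7 (4.33 ± 0.11, adjusted p = 4.76e-09). Fabp4, a fatty acid carrier of fat cells, macrophages and endothelium, had 17028.7 and 16871.3, against 3137.8 and 3078.3 (2.43 ± 0.09), and the fatty acid receptor Cd36 rose by 1.70 ± 0.17. Of 8 tested adipocyte genes 6 rose and 0 fell, and 2 of the 8 passed the filter only through the day 9 arrays. Adipoq, the fat cell hormone adiponectin, had 2044.0 and 1867.3 on day 9, against 61.3 and 27.1 on day 7 (4.33 ± 0.24, adjusted p = 9.36e-07). Car3, an abundant carbonic anhydrase of fat cells, had 10239.3 and 8227.4, against 262.5 and 332.4 (4.71 ± 0.28), Retn, resistin, had 1785.8 and 2018.3, against 281.2 and 249.0 (2.60 ± 0.26), and Cidec, a lipid droplet protein, had 299.7 and 327.5, against 44.6 and 33.9 (1.95 ± 0.14). Lep was not tested, with at most 25.4. The summed signal of the 8 genes was 35840 and 34016 on day 9, against 7373 and 7185 on day 7, and the part of fat tissue in the lipid results was not tested. Mesothelial genes, which would come with the outer surface of the uterus, split: Upk3b had 409.3 and 496.4, against 57.1 and 35.4 (2.31 ± 0.18), while Wt1, which decidua also expresses, had 3854.0 and 3152.2, against 6326.8 and 6569.7 (-0.88 ± 0.11). Of the 6 tested mesothelial genes 3 rose and 2 fell. Here 2 of the 6 passed the filter only through the day 9 arrays, and of the other 4, 1 rose. Of 5 tested skeletal muscle genes Ckm rose, Tnnt3 (-1.5 ± 0.32) and Tnni2 (-0.44 ± 0.16) fell, and the skeletal actin Acta1 did not pass the test (adjusted p = 0.319).

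The change between days in mouse sites was set against that in rat sites, with the difference itself as the test. The array's probes were designed for mouse transcripts, and how well transcripts of the rat embryo bind them was not tested. The mouse change differed from the rat change for 7206 of 22155 probe sets (32.5%) and from the change after co-transfer for 4163 (18.8%). In genes these were 34.5% and 18.9%. The changes share no arrays. All rat site arrays of day 9 lay in wash run 3, and the co-transfer arrays of day 7 lay in run 2 except for 1 in run 4 on another scanner and date, so run and these differences cannot be told apart. Without that array 3447 probe sets differed from rat sites after co-transfer. The 3′ to 5′ ratio of Gapdh, higher on day 9 in mouse sites, was 3.70 and 3.68 in rat sites on day 9, against 3.60 and 3.34 on day 7. After co-transfer it was 3.76 and 4.07 on day 9, against 2.56 to 2.95 on day 7, and its part in the differences was not tested.

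Embryonic globins and trophoblast hormones gave the largest differences from rat sites after co-transfer. Hbb-y averaged 804.6 on day 9, against 18.6 on day 7 in rat sites, and its mouse change exceeded the rat change by 4.99 ± 0.21 on the log2 scale (adjusted p = 1.43e-07). After co-transfer, where Hbb-y had at most 11.8 on any array, the difference was 8.51 ± 0.20 (adjusted p = 1.05e-08). Prl4a1 (8.03 ± 0.44) and Hbb-bh1 (7.67 ± 0.38) gave the next largest differences from rat sites after co-transfer.

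Proteases, Lcn2, metallothionein and a decidual hormone gave the largest differences from rat sites. Mmp13 had signals of 5571.9 to 6102.9 in rat sites on day 9, against 6.7 to 11 on day 7, the opposite of mouse sites, and the changes differed by -9.75 ± 0.26 (adjusted p = 1.41e-08). Mmp10 had 5077.1 to 5174.3 in rat sites on day 9, against 36.9 to 98.4 on day 7 (-8.38 ± 0.67, adjusted p = 9.6e-06), and Lcn2 had 15497.7 to 15976.9, against 194.1 to 241.0 (-7.43 ± 0.32, adjusted p = 1.67e-07). After co-transfer the same contrast was smaller, at -4.06 ± 0.25 for Mmp13 and -4.25 ± 0.64 for Mmp10. There Mmp13 reached at most 90.9 on day 9. In the other direction, Prl3c1 was not detectably changed in mouse sites but had 9.0 and 89.2 in rat sites on day 9, against 9660.1 and 9862.0 on day 7 (difference 6.50 ± 0.41, adjusted p = 1.84e-06), whereas after co-transfer the difference was 0.61 ± 0.39 (adjusted p = 0.298). Mt4 differed by 6.60 ± 0.17 from rat sites, where it had 489.0 and 584.8 on day 9, against 6342.7 and 6398.7 on day 7. Psca, a glycosylphosphatidylinositol-anchored surface protein, differed by 6.00 ± 0.20, with 48.6 and 78.6 in rat sites on day 9, against 193.1 and 208.1 on day 7. The epithelial gene Sprr2f gave the lowest difference from rat sites after co-transfer (-4.69 ± 0.20, adjusted p = 9.4e-07). Of the gland proteases, Prss28 averaged 8982 on day 9, against 18924 on day 7 in rat sites, and the mouse fall was deeper by 3.20 on the log2 scale.

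**Figure D5:**
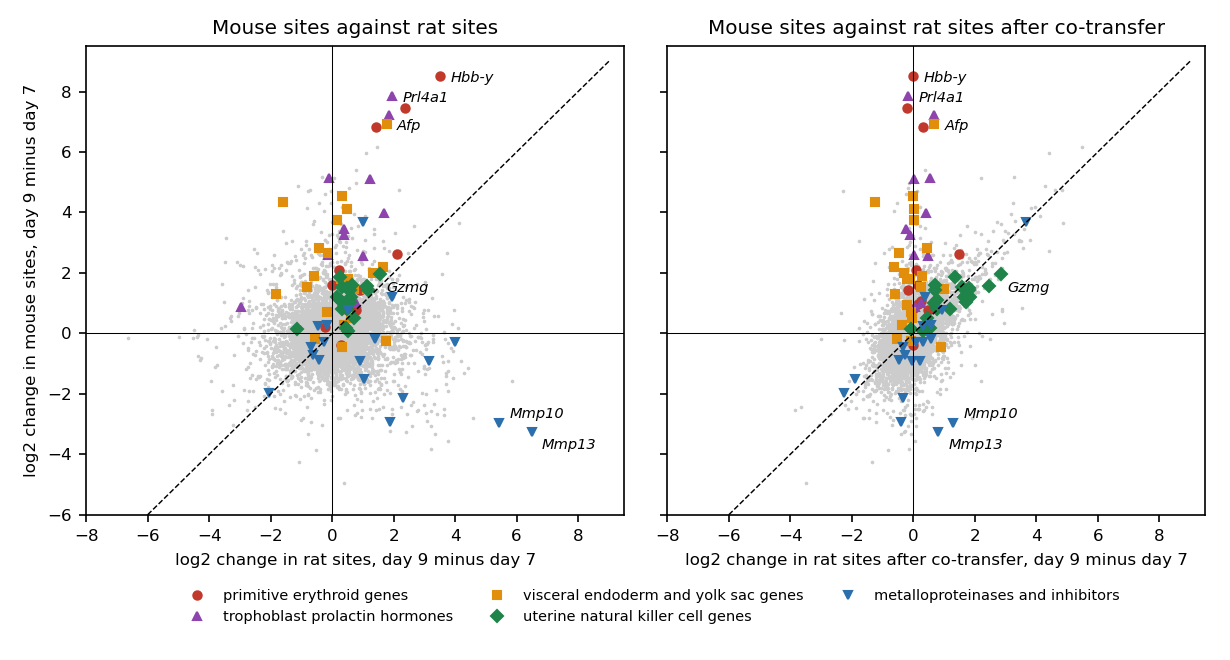
Log2 change between day 9 and day 7 in mouse sites (vertical axis) against that in rat sites (left, horizontal axis) and in rat sites after co-transfer (right), for all 12010 genes (grey) and the members of 5 lists (coloured symbols). The dashed line marks equal change. Hbb-y, Prl4a1 and Afp lie far above it, Mmp13 and Mmp10 lie far below it in both panels and farthest right against rat sites, and Gzmg lies above 0 on every axis.

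The granzyme Gzmg was higher on day 9 in all 3 kinds of site. It had 7274.0 to 7530.1 in rat sites on day 9, against 2439.9 to 2559.8 on day 7, and 10650.1 to 11738.9 after co-transfer on day 9, against 1417.6 to 1576.7 on day 7. Its mouse change exceeded the rat change by 0.43 ± 0.13 (adjusted p = 0.0278) and fell short of the change after co-transfer by 0.86 (SE 0.12, adjusted p = 0.00161). Of the 19 tested natural killer genes 10 differed from rat sites and 4 from rat sites after co-transfer, against backgrounds of 34.5% and 18.9%. The list medians of these differences were 0.53 and -0.21. Adipoq, by contrast, averaged 112.6 in rat sites on day 9, against 115.6 on day 7, and had 11.7 and 49.3 after co-transfer on day 9, against 57.3 to 83.4 on day 7, so the high signals stood on the day 9 mouse arrays. The difference of changes was 4.37 ± 0.34 from rat sites and 4.86 ± 0.32 from rat sites after co-transfer. Hypoxia and glycolysis genes differed from rat sites for 29 of 38 and from rat sites after co-transfer for 27 of 38, with list medians of -0.85 and -0.77.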

How the data were processed

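Affymetrix Mouse430_2 arrays of 13 implantation sites were analysed, and the 4 arrays of mouse embryo sites are described. The deposited values are linear signal intensities made with MAS5, per the submitters' processing notes (version not stated there). On each array the trimmed mean is 500. Detection calls were not used. Signals were tested as log2(signal + 57.1), the constant being their 25th percentile. Tests kept probe sets that exceeded the 60th percentile of an array on 2 or more of the 13 arrays. One model of 6 group means was fitted to all 13 arrays with limma 3.58.1 (lmFit and eBayes) in R 4.3.3, with 7 residual degrees of freedom, and p-values were Benjamini-Hochberg adjusted over all 22155 tested probe sets. The test was checked on simulated data. Of 45101 probe sets 34958 carried 1 gene symbol, 932 several and 9211 none, and each gene was read from its brightest tested probe set (mean log2 signal over the 13 arrays). The genes named are the 15 largest rises and falls, up to 3 called rises and falls of each of 44 gene lists, the first 3 tested members of each list, and the 3 largest differences in each direction from each rat comparison. The members and lists were chosen with earlier results of these data known. The 4 wash runs were inferred from gaps of more than 30 minutes between hybridisation times. Alternatives were other constants, filters, scalings, weights, blocks and left-out arrays.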

Additional observations from a re-analysis of the deposited data

Results flagged for a closer look

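The change between day 9 and day 7 in mouse sites differed from that in rat sites for 7206 probe sets, by a limma test of the difference itself. The largest positive differences on the log2 scale were 6.60 for Mt4, 6.50 for Prl3c1 and 6.00 for Psca, and the largest negative ones were -9.75 for Mmp13, -8.38 for Mmp10 and -7.43 for Lcn2. Against rat sites after co-transfer the difference was called for 4163 probe sets. There the largest positive differences were 8.51 for Hbb-y, 8.03 for Prl4a1 and 7.67 for Hbb-bh1, and the largest negative ones were -4.69 for Sprr2f, -4.25 for Mmp10 and -4.06 for Mmp13. These genes were picked for the size of the difference.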

How the results depend on the processing

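Of the 189 called genes named above, 162 passed the test in the same direction under all 16 alternatives of the day comparison, and 27 lost the call or turned under at least 1. Median scaling gave 2275 rises and 9091 falls, and among called results it turned Cyp11a1 to -0.12 and brought Col1a2, uncalled before, to a called -0.38. It also brought 9 uncalled named genes past the threshold without a change of sign, among them Acta2 (-0.62), H2-K1 (-0.57) and Col3a1 (-0.39). Another 8 named genes, called under neither scaling, changed sign. Without probe sets that can match several transcripts (s_at, x_at and a_at) 3003 probe sets fell. Without the filter on low signals 2446 probe sets differed from rat sites after co-transfer. Leaving out 1 array at a time left 6994 to 8885 calls between days (3303 to 4319 rises and 3553 to 4566 falls), 5807 to 6782 differences from rat sites and 2433 to 4173 from rat sites after co-transfer. The last count was 2563 without day 9 co-transfer array 1, 2433 without array 2, 2675 without day 9 mouse array 2 and 2490 without day 7 mouse array 2. The replicate numbers mark no stated pairing, and deviations of same-numbered mouse arrays correlated at 0.0131. With the replicate number as a block 9496 probe sets were called between days, 6868 differed from rat sites and 3106 from rat sites after co-transfer. With wash run as a random block (correlation within runs -0.0862) 10667 were called. The mouse arrays of each day lay in a single, different run, so this fit cannot separate run from day. Over all alternatives 202 list medians moved beyond the spread between arrays and 502 did not, median scaling moving 42 of 44 and quantile normalization 28. Of the list counts 165 moved by over 1.5 times and 1243 did not, and the cause was not tested. With 2 arrays a day, the number of arrays limits what can be detected.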
